A study of Mus musculus with 4 samples.

Results

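Messenger RNA of 10 genes that make, move or bypass lactate was compared between the tibialis anterior muscles of Nf1-KO and Het mice. They were the lactate dehydrogenase genes Ldha, Ldhb and Ldhd, the lactate transporter genes Slc16a1 and Slc16a3 with their partner Bsg, and the NADH shuttle genes Gpd1, Gpd2, Got1 and Got2. The genes were picked by name from the 32868 gene names in the tables, after the higher level of Ldhb in Nf1-KO had been noticed. The values of Ldhb, and every ratio that holds it, are therefore given as a description with no test. The other genes were also chosen with earlier results of these data known, so their adjusted p-values describe and are not independent tests.

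The tibialis anterior is a fast muscle on the front of the lower hind limb. It was taken on postnatal day 21 from C57BL/6 mice labelled Nf1flox/+/Myf5+ (Het, 2 libraries) or Nf1flox/flox/Myf5+ (Nf1-KO, 2 libraries). The Het controls thus also carried a floxed allele and the Myf5 label, which in crosses of this kind stands for Cre recombinase expressed in muscle precursors. Cells outside that lineage, such as vessel, nerve and immune cells, would keep Nf1, and the labels do not say whether the libraries came from separate animals. If they did not, the p-values below measure technical spread alone.

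A muscle cell that burns glucose quickly must reoxidise the NADH made in glycolysis. Lactate dehydrogenase does so by turning pyruvate into lactate. The enzyme is a tetramer of A subunits (from Ldha, the main form of fast muscle) and B subunits (from Ldhb, the main form of heart and oxidative fibres). Lactate crosses the membrane with a proton through monocarboxylate transporters: MCT4 (Slc16a3) is typical of glycolytic fibres that export lactate, and MCT1 (Slc16a1) of oxidative fibres that take it up. Basigin (Bsg) carries both to the membrane. The alternative is to pass the electrons of NADH into mitochondria through the glycerol phosphate shuttle (Gpd1 in the cytosol, Gpd2 on the inner membrane) or the malate-aspartate shuttle, in which Got1 and Got2 are the cytosolic and mitochondrial aminotransferases.

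Levels are RPKM, reads scaled to gene length and library depth, as the authors deposited them. Differences are on the log2 scale of RPKM scaled between libraries plus a pseudocount of 1, and adjusted p-values come from limma fitted over 10690 genes, with a threshold of 0.05. Summed RPKM ran from 532315 to 547144 per library, and the authors' deposited table gives the 10 genes a mean normalised count of 1786 (Ldhd) to 87180 (Ldha). At the depth this implies, 1 RPKM over 1 kb stood for about 47.5 reads. Nf1 itself was 1.09 and 1.01 RPKM in Het and 0.89 and 0.85 RPKM in the libraries labelled Nf1-KO. Its log2 difference of -0.18 passed narrowly (limma adjusted p 0.041). At this low level the size depends on the pseudocount: the difference was -0.24 with a pseudocount of 0.5 and -0.33 with 0.1. Over all its settings the difference ran from -0.33 to -0.13. The call was lost with values as deposited (limma adjusted p 0.094) and when any 1 library was left out, where the adjusted p ran from 0.062 to 0.18. The muscle markers Acta1, Ckm, Tnnt3, Mylpf and Ttn together summed to 40374 and 40263 RPKM in Het and 33752 and 33594 RPKM in Nf1-KO. All 5 were called lower, as were 25.4% of all tested genes.

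Across the transcriptome, 50.3% of tested genes passed the threshold (24.9% higher and 25.4% lower), so a call alone sets no gene apart. With values as deposited in place of scaled ones, 66.6% of the called genes were higher, against 49.5%. All 10 genes passed the filter on low values. Apart from Ldhb, 8 of the other 9 passed the threshold: Slc16a1, Got1 and Got2 were higher, and Ldha, Slc16a3, Bsg, Gpd1 and Gpd2 were lower. The groups did not overlap in any of these 9, nor in 76.3% of all tested genes. Of the 9, Slc16a3 and Gpd2 differed by more than 1 on the log2 scale, where 1.99% of tested genes were called with a difference of that size. The coefficient of variation between the replicates of a group was between 0.142% and 4.21% for the 10 genes.

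**Figure D1:**
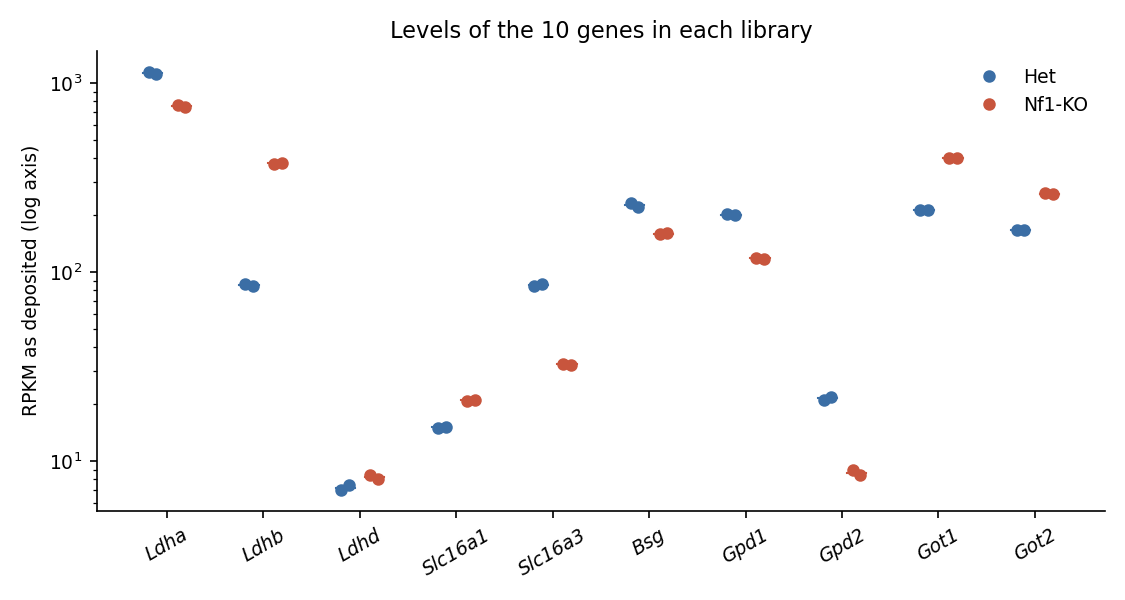
RPKM of the 10 genes in each library on a log axis, with Het in blue, Nf1-KO in red and the group means as short lines. Ldha is the most abundant in all 4 libraries, and Ldhb moves from 84.5 and 86.6 RPKM in Het to 375 and 376 RPKM in Nf1-KO.

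The RNA for lactate dehydrogenase differed more in its make-up than in its total. Ldha stood at 1149 and 1120 RPKM in Het, against 762 and 748 RPKM in Nf1-KO. It remained the most abundant of the 10 genes in both groups, but its groups did not overlap. Means were 1134 ± 20.7 RPKM in Het and 755 ± 10.5 RPKM in Nf1-KO (SD, n = 2). Ldha thus fell by 0.68 on the log2 scale, with a standard error of 0.020 (limma adjusted p 2.4e-06). Ldhb was 86.6 and 84.5 RPKM in Het and 375 and 376 RPKM in Nf1-KO. The replicates of a group lay close together and the groups far apart, with SDs of 1.44 and 1.04 RPKM around means of 85.6 and 375 RPKM. The mean of RPKM as deposited was 4.39-fold higher. On scaled RPKM plus 1, the log2 difference was 2.03 with a standard error of 0.020. This difference ranked 15 from the top among the 10690 tested genes, but Ldhb was chosen for its rise, so the rank is no test. Ldhb moved from rank 7 to rank 3 in level among the 10 genes, passing Bsg, Gpd1, Slc16a3 and Got2.

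The Ldha to Ldhb ratio was 13.3 and 13.2 in the Het libraries and 2.04 and 1.99 in the Nf1-KO libraries. Since RPKM is per length, and scaling between libraries cancels in a ratio, this compares both transcripts directly within each library. On the log2 scale the ratio was 3.73 ± 0.0021 in Het and 1.01 ± 0.024 in Nf1-KO (SD, n = 2), which is 6.59-fold lower in Nf1-KO. Ldhb made up 7.01% and 7.02% of the summed Ldha and Ldhb level in Het and 32.9% and 33.5% in Nf1-KO. The sum itself was 1235 and 1204 RPKM in Het and 1137 and 1124 RPKM in Nf1-KO, 7.33% lower as deposited. Scaling between libraries does not cancel in a sum and would make this fall larger. In whole muscle, a change in the share of fibres of a type and a change in RNA per fibre cannot be told apart.

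**Figure D2:**
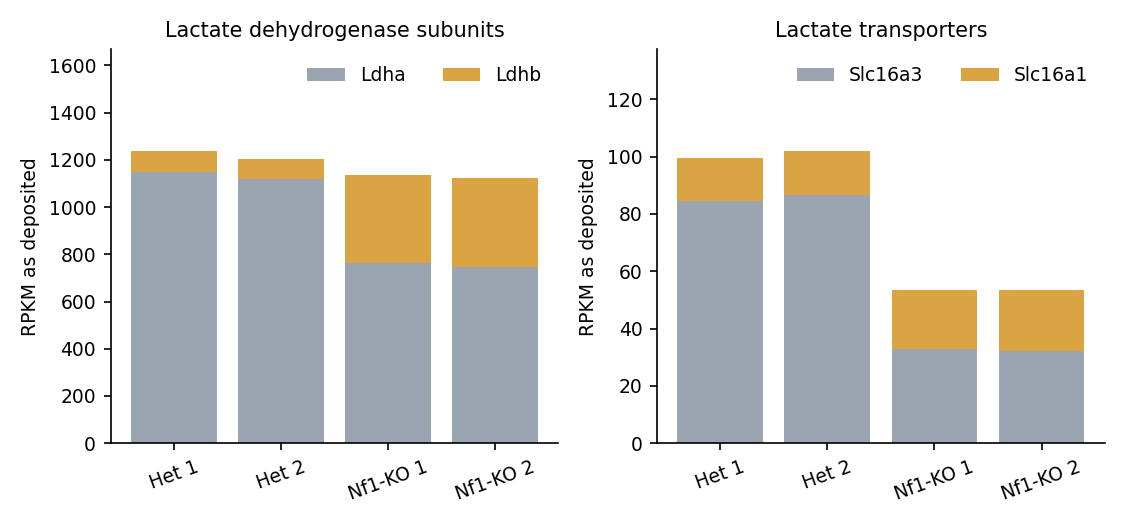
Stacked RPKM per library of the subunit genes Ldha and Ldhb (left) and of the transporter genes Slc16a3 and Slc16a1 (right), with bars from 0. The subunit total is 1124 to 1235 RPKM in all 4 libraries while its Ldhb part grows, whereas the transporter total is 99.6 and 102 RPKM in Het and 53.6 and 53.3 RPKM in Nf1-KO.

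Ldhd, a mitochondrial enzyme that oxidises D-lactate, was the least abundant of the 10 genes. It was 7.03 and 7.44 RPKM in Het and 8.48 and 7.99 RPKM in Nf1-KO. The groups did not overlap, but the log2 difference was 0.08 with a standard error of 0.048, short of the threshold (limma adjusted p 0.21). With values as deposited it was 0.17 and did pass (limma adjusted p 0.028). Over all settings the adjusted p ran from 0.028 to 0.6. An exon of Ldhd overlaps one of Znrf1 on the opposite strand, and the sources used here do not say if reads were counted by strand.

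The stretches of 250 bases before the annotated starts of Ldha and Ldhb are shown because the 2 subunit genes differed in opposite directions. They are RefSeq windows on build GRCm38.p6, read 5′ to 3′ along the gene, whereas the submitters' processing notes name mm9. Capitals mark matches, on either strand, to 4 motifs. The E-box is CACGTG. The core of the hypoxia response element is ACGTG, which every E-box contains. The core of the oestrogen-related receptor element is AAGGTCA. The GC box is GGGCGG. Ldha has 2 starts in the RefSeq table, with windows at chr7:46845554-46845803 and chr7:46846832-46847081 on the plus strand, and Ldhb has 1, with its window at chr6:142507958-142508207 on the minus strand.
Ldha, upstream start: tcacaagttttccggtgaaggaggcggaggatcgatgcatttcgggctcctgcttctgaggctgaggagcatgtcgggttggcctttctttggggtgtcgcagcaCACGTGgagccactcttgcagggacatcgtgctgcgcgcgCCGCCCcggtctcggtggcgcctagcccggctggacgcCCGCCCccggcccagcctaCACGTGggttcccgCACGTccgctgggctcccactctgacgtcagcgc
Ldha, downstream start: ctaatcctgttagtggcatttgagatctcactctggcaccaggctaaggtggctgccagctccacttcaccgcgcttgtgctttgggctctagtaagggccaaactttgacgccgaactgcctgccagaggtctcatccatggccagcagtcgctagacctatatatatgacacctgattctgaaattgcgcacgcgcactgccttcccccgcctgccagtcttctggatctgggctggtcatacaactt
Ldhb: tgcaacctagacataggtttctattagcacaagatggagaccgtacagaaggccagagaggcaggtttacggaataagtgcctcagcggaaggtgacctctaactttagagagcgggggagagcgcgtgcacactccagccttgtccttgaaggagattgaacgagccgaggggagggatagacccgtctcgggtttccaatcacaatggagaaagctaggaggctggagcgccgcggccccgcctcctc
The upstream window of Ldha held 2 E-boxes, 5 matches to the hypoxia core (4 of them the paired readings inside the E-boxes) and 2 GC boxes. The bases just after this start were not found in a GENCODE M21 transcript of Ldha, whereas those after its downstream start were. None of the 4 motifs was found in the downstream window of Ldha or in that of Ldhb. Among 32851 windows of this length, 6.02% held the E-box, 16.6% the hypoxia core, 4.08% the oestrogen-related receptor core and 32.7% the GC box. The GC content was 67.2% and 54.4% in the Ldha windows and 56.4% in that of Ldhb. Such matches describe letters only, not binding.

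Transcripts of both transporters also changed, in opposite directions. Slc16a3, which encodes MCT4, was 84.5 and 86.7 RPKM in Het and 32.8 and 32.3 RPKM in Nf1-KO. Both Nf1-KO libraries were far below both Het libraries. Its log2 difference of -1.46 with a standard error of 0.026 (limma adjusted p 3.8e-07) was the lowest of the 10 genes and ranked 29 from the bottom of the 10690 tested. Slc16a1, which encodes MCT1, rose from 15.0 and 15.2 RPKM to 20.9 and 21.0 RPKM. That was a log2 difference of 0.36 with a standard error of 0.030 (limma adjusted p 1.6e-04), and the smallest called difference among these genes.

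The Slc16a1 to Slc16a3 ratio was 0.178 and 0.175 in Het and 0.637 and 0.651 in Nf1-KO, a 3.65-fold higher ratio on average. Slc16a1 made up 15.1% and 14.9% of the summed level of both in Het and 38.9% and 39.4% in Nf1-KO. Slc16a3 thus remained the more abundant transporter transcript in every library. The transporter sum, also of RPKM as deposited, was lower by 46.9%, a larger fall than that of the subunit sum. It was 101 ± 1.61 RPKM in Het and 53.5 ± 0.198 RPKM in Nf1-KO (SD, n = 2). With 2 libraries against 2, an exact two-sided permutation test of any such ratio cannot go below 0.333, and that was its value here.

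Bsg, the shared partner of both transporters, was 231 and 221 RPKM in Het and 159.6 and 159.95 RPKM in Nf1-KO. It fell by 0.59 on the log2 scale with a standard error of 0.026 (limma adjusted p 1.1e-05). In both groups Bsg exceeded the summed level of Slc16a1 and Slc16a3.

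The same window before the start is shown for both transporter genes, with the same motifs in capitals, because their transcripts changed in opposite directions. It lies at chr3:104638414-104638663 for Slc16a1 and at chr11:120948817-120949066 for Slc16a3, both on the plus strand of GRCm38.p6.
Slc16a1: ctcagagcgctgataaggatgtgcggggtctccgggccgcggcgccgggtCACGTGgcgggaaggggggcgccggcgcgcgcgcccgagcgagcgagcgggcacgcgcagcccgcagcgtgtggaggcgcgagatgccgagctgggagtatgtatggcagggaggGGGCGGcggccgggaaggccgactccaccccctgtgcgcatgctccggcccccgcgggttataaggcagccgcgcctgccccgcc
Slc16a3: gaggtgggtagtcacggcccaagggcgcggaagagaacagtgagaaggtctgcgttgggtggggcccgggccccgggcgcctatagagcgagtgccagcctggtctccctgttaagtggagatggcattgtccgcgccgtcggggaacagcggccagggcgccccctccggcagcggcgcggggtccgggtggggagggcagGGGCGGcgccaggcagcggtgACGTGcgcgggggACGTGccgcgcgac
Each window held 2 hypoxia cores. In Slc16a1 they were the paired readings inside its 1 E-box, and Slc16a3 had no E-box. The bases just after the Slc16a1 start were not found in a GENCODE M21 transcript of the gene, and those after the Slc16a3 start were. Each held 1 GC box, and neither held the oestrogen-related receptor core. Both were rich in G and C, at 76.4% for Slc16a1 and 73.6% for Slc16a3.

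**Figure D3:**
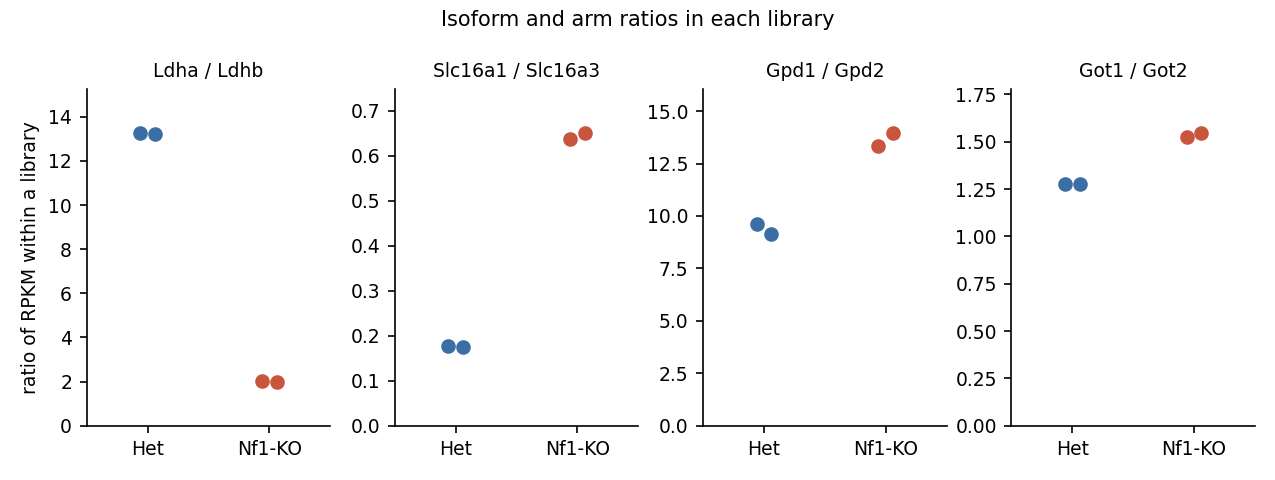
Ratio of RPKM within each library for 4 pairs of genes, with separate vertical axes that start at 0. The Ldha to Ldhb ratio falls from about 13 to about 2, and the Slc16a1 to Slc16a3 ratio goes from at most 0.178 in Het to at least 0.637 in Nf1-KO.

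Both arms of the glycerol phosphate shuttle fell. Gpd1, the cytosolic enzyme that reduces dihydroxyacetone phosphate with NADH, was 202 and 199.7 RPKM in Het and 119 and 118 RPKM in Nf1-KO. Its log2 difference was -0.85 with a standard error of 0.020 (limma adjusted p 1e-06). Gpd2, the mitochondrial enzyme that hands the electrons on to the respiratory chain, was 21.1 and 21.9 RPKM in Het and 8.95 and 8.44 RPKM in Nf1-KO. The log2 difference was -1.30 with a standard error of 0.041 (limma adjusted p 2.9e-06). The Gpd1 to Gpd2 ratio was 9.60 and 9.14 in Het and 13.3 and 13.96 in Nf1-KO. Exons of Gpd1 and Gpd2 overlap those of Gm16537 and A930012O16Rik on the opposite strand.

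Both aminotransferases of the malate-aspartate shuttle rose instead. Got1, the cytosolic form, was 213 RPKM in each Het library and 399.9 and 399 RPKM in Nf1-KO, a log2 difference of 0.81 with a standard error of 0.017 (limma adjusted p 7.3e-07). Got2, the mitochondrial form, was 166.7 and 166.4 RPKM in Het and 262 and 258 RPKM in Nf1-KO. It rose by 0.55 with a standard error of 0.019 (limma adjusted p 4.3e-06). The Got1 to Got2 ratio was 1.28 in each Het library and 1.53 and 1.55 in Nf1-KO. In Het, Gpd1 and Got1 had like levels of 201 ± 1.68 and 213 ± 0.431 RPKM (SD, n = 2). In Nf1-KO they stood at 119 ± 1.04 and 399 ± 0.622 RPKM. GENCODE M21 names 2 pseudogenes after Ldha and 1 after Got2, and an exon of Got2 overlaps Gm45760. Pseudogenes under other names were not searched for. Shared reads leave the Ldha and Got2 values uncertain to an extent that was not measured.

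**Figure D4:**
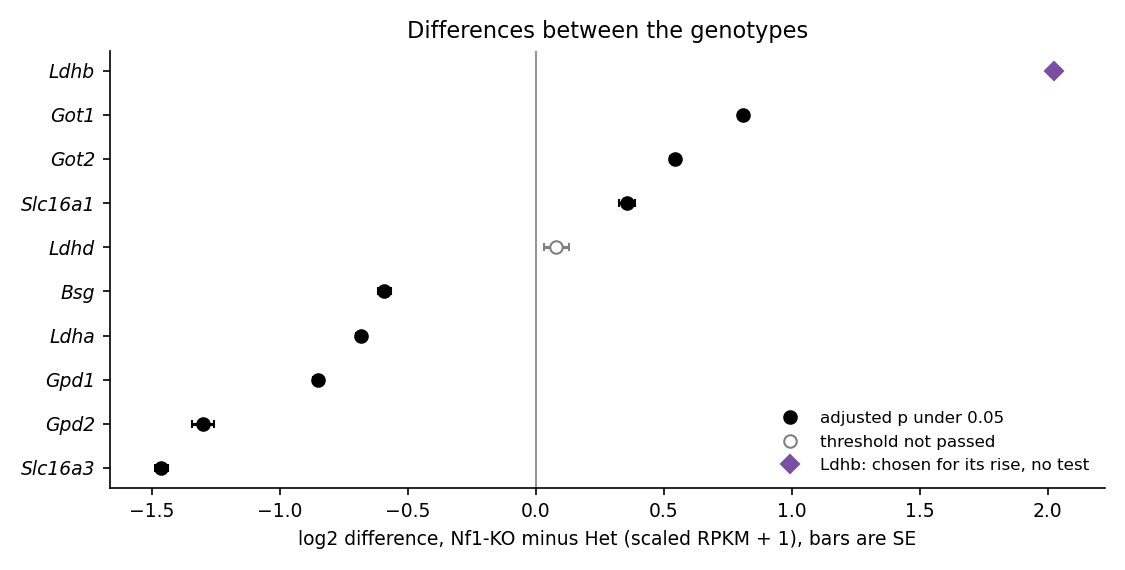
Log2 difference of Nf1-KO minus Het for each of the 10 genes, with standard errors from the fit over all genes as bars, which are often smaller than the points. Got1, Got2 and Slc16a1 lie on the right at 0.36 to 0.81, and Slc16a3 lies farthest to the left at -1.46.

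Of 8 other shuttle genes, 5 could be tested and all 5 rose, with a median log2 difference of 0.29. Over all tested genes 24.9% were called higher, and the median was 0.00045. Mdh1, the cytosolic malate dehydrogenase, was 275 and 270 RPKM in Het and 435 and 437 RPKM in Nf1-KO (log2 difference 0.58, limma adjusted p 2.8e-06). Mdh2, its mitochondrial counterpart and the most abundant gene of the list, rose by 0.28 to 926 and 913 RPKM. Slc25a11, the oxoglutarate carrier, rose by 0.41. The aspartate-glutamate carrier gene Slc25a12 rose by 0.26 from 201 and 196 to 256 and 251 RPKM. Slc25a12 belonged to the planned list, but was picked for mention after its values were seen. Gpd1l, a relative of Gpd1 and not a malate-aspartate gene, was low and rose by 0.29, from 6.98 and 6.66 to 8.79 and 9.43 RPKM. Slc25a13 was below the filter, and Got1l1 and Mdh1b were listed at 0. Exons of Mdh1 and Slc25a11 overlap those of Wdpcp and Rnf167.

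Genes around pyruvate were mixed. Of 8 genes, all tested, 5 rose and only Pkm fell, with a median of 0.18. The shares over all tested genes were 24.9% higher and 25.4% lower. Pkm, which encodes the pyruvate kinase that makes pyruvate in muscle, was 466 and 457 RPKM in Het and 278 and 271 RPKM in Nf1-KO (log2 difference -0.84, limma adjusted p 1.3e-06). Pdha1, a subunit of pyruvate dehydrogenase, rose from 206 and 207 to 278 RPKM in each Nf1-KO library, a log2 difference of 0.33. The alanine aminotransferase gene Gpt rose by 0.35 and the pyruvate carboxylase gene Pcx by 0.27. Exons of Pkm and Pdha1 overlap those of Gm49759 and Map3k15.

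Other monocarboxylate transporters were low. Of 14 genes in this list 4 could be tested, of which 1 rose, 2 fell and 1 did not pass, with a median of -0.15. With 50.3% called over all tested genes, 4 genes are too few to set this list apart. Slc16a10, a carrier of aromatic amino acids, fell from 8.17 and 7.43 to 4.95 and 5.29 RPKM (log2 difference -0.60, limma adjusted p 2.6e-04). Slc16a8 rose by 0.39 and lost its call with no filter on low values (limma adjusted p 0.054), and Slc16a9 fell by 0.31. Slc16a6, whose locus overlaps Amz2 and Arsg on the opposite strand, was 1.33 and 1.44 RPKM in Het and 1.52 and 1.44 RPKM in Nf1-KO and did not pass (limma adjusted p 0.99). Among other lactate dehydrogenase and lactate receptor genes only Uevld could be tested. It was 1.70 and 1.63 RPKM in Het and 1.60 and 1.65 RPKM in Nf1-KO and did not pass (limma adjusted p 0.26). Ldhal6b and the lactate receptor gene Hcar1 were at or under 0.17 RPKM, and the testis form Ldhc was listed at 0.

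Of 12 genes of the hypoxia, Myc and PGC-1 pathways that are known to act on Ldha or Ldhb, 8 rose, 2 fell and 2 did not pass. Their median was 0.22, and calls over all tested genes were 24.9% higher and 25.4% lower. Egln3, a prolyl hydroxylase that acts on hypoxia-inducible factors, rose from 24.9 and 25.5 to 42.1 and 42.3 RPKM, a log2 difference of 0.63. Esrrb and Hif1a rose by 0.50 and 0.40, though both stayed under 5 RPKM. Ppargc1a, the coactivator PGC-1α of oxidative genes, rose from 5.82 and 6.08 to 8.46 and 8.56 RPKM (log2 difference 0.37, limma adjusted p 5.7e-04). Those that fell were Vhl and Ppargc1b, named after their values were seen.

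The supply of NAD, the carrier all these reactions share, was covered by 11 genes, of which 8 could be tested. Among them 1 rose, 3 fell and 4 did not pass, with a median of 0.02. That share of calls is close to the 50.3% over all tested genes. Nmrk2, the muscle nicotinamide riboside kinase, was 46.3 and 47.1 RPKM in Het and 12.2 and 12.4 RPKM in Nf1-KO (log2 difference -1.93, limma adjusted p 2.8e-07). Its groups were far apart. The other changes in this list were small: Nmnat1, the nuclear NMN adenylyltransferase, fell by 0.21 and Nmnat3 rose by 0.19 (limma adjusted p 0.039). The Nmnat3 call was lost without Het replicate 1, Het replicate 2 or Nf1-KO replicate 2, where limma adjusted p-values were 0.09, 0.19 and 0.17. Naprt did not pass (log2 difference 0.22, limma adjusted p 0.071), although it did without Het replicate 2 (limma adjusted p 0.035) and with values as deposited (0.032). Without Het replicate 1, or without Nf1-KO replicate 2, only 2 genes of this list were called. Exons of Nmrk2 and Naprt overlap those of Atcayos and Eef1d.

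**Figure D5:**
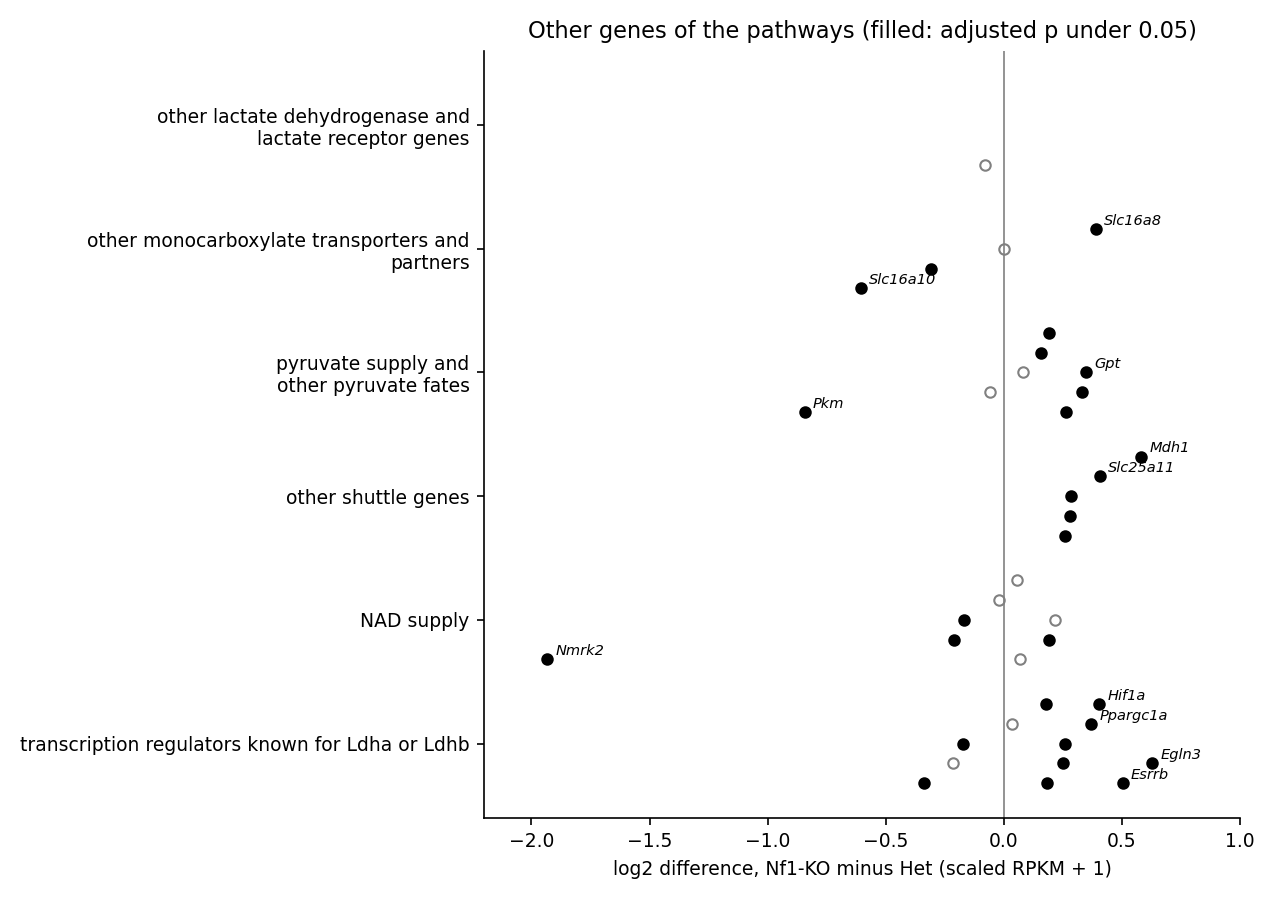
Log2 difference of Nf1-KO minus Het for each tested gene of the 6 other pathway lists, where filled points passed the threshold and open points did not. All 5 tested shuttle genes lie to the right of 0, and Nmrk2 lies farthest to the left at -1.93.

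Fibre type genes moved with these results. The 2B myosin gene Myh4 fell from 6767 and 7015 to 3508 and 3428 RPKM, a log2 difference of -1.08, and the 4 fast 2B genes listed (with Pvalb, Actn3 and Mybpc2) all fell. Their sum was 15152 to 15285 RPKM in Het and 6521 to 6608 RPKM in Nf1-KO. Myh1 (2X) and Myh2 (2A) rose by 0.52 and 0.77, and 5 of 6 slow fibre genes rose. The sum of all 6 was only 31.4 to 32.0 RPKM in Het and 45.6 to 45.9 RPKM in Nf1-KO. The slow myosin gene Myh7, named after its values were seen, was the 1 that did not pass (log2 difference -0.16, limma adjusted p 0.066). It was 1.53 and 1.66 RPKM in Het and 1.47 and 1.36 RPKM in Nf1-KO. Over all tested genes 24.9% were called higher and 25.4% lower. The part of fibre type in the lactate and shuttle genes was not tested.

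Markers of other cells were also compared, since such cells can express Slc16a1, Ldhb or Gpd1. The sums below are of RPKM as deposited, whereas the calls are on values scaled between libraries. Over all tested genes 24.9% were called higher and 25.4% lower. All 5 Schwann cell markers rose, with a sum of 9.88 to 9.94 RPKM in Het and 22.7 to 24.4 RPKM in Nf1-KO. Endothelial markers summed to 69.7 to 70.0 and 74.8 to 75.7 RPKM, with 2 higher, 1 lower and 2 not passed of 5. On scaled values their median log2 difference was 0.0010. Fibroblast markers summed to 76.0 to 78.2 and 113.8 to 114 RPKM, with 4 of 5 higher. Both tested immune genes of 5 rose, with sums of 1.16 to 1.58 and 2.84 to 3.29 RPKM and Adgre1 listed at 0. Adipocyte markers, of which 1 of 2 tested rose, summed to 2.42 to 2.67 and 2.68 to 2.89 RPKM. Satellite cell markers had 0 calls among 2 tested by limma, with sums of 7.07 to 7.22 and 7.81 to 7.95 RPKM. For red blood cells Hba-a2, Hbb-b1 and Hbb-b2 were listed at 0, as were 42.3% of all gene names in all 4 libraries. Why they were at 0 was not tested. Alas2, the 1 red blood cell gene tested, did not pass (limma adjusted p 0.14). It was 1.40 and 1.37 RPKM in Het and 1.77 and 1.62 RPKM in Nf1-KO. The part of these cells in the results above was not tested.

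The 3 genes whose values over the 4 libraries lay closest to those of Ldhb, out of 4826 other tested genes of at least 5 RPKM on average, were Fkbp5, Nnt and Tbc1d4. Closeness was the Euclidean distance between centred log2 values, which was 0.027, 0.070 and 0.119. Fkbp5, a cochaperone of steroid receptors, was 5.67 and 5.52 RPKM in Het and 27.9 and 27.3 RPKM in Nf1-KO. Nnt, which makes mitochondrial NADPH from NADH, was 12.67 and 12.7 RPKM in Het and 56.9 and 55.3 RPKM in Nf1-KO. Tbc1d4, a regulator of glucose transporter traffic, was at most 3.45 RPKM in Het and 19.55 and 19.7 RPKM in Nf1-KO. With 4 libraries in 2 groups, this likeness says little more than that the genes differ between the groups by a like amount.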

How the data were processed

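Total RNA of 4 muscle libraries (2 Het, 2 Nf1-KO) was prepared with a TruSeq RNA v2 kit, per the labels' protocols. The submitters' processing notes name STAR 2.4.2a, DESeq2 and the build mm9. The counting program, annotation and use of strand are not given in the sources used here. The authors deposited 34682 values per library; the unit was read from the values as RPKM. Over 8482 genes, the authors' mean normalised count divided by RPKM rose with transcript length with a log-log slope of 0.953. The authors also deposited a comparison table with, per the file headers, a mean normalised count (a signal value), a log2 fold change with its standard error, a test score and p-values. Of the 10 genes, log2 fold changes in the authors' deposited table differed from those here by at most 0.11 (Gpd2).

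Rows without a gene name were left out and the copy with the highest mean kept. A gene needed 0.5 RPKM or more in 2 or more libraries to enter limma 3.58.1 (R 4.3.3). The fit was on log2(scaled RPKM + 1) with a variance trend. The pseudocount of 1 understates changes of low genes. Scaling used a trimmed mean of log ratios (30% and 5% trimmed), with factors of 0.968, 0.967, 1.03 and 1.03. The median log2 difference moved by 0.069 when it was left out. Tests were two-sided, with Benjamini-Hochberg adjustment over all 10690 tested genes. The script was tested on simulated data. The genes and lists were chosen with earlier results of these data known, and 1 gene of the transporter list is not reported here. Named were the 10 genes, up to 4 tested genes of each list with the largest difference, Nf1, 3 myosin genes and the 3 genes most like Ldhb. Gene overlaps come from GENCODE M21 (GRCm38). RefSeq promoters matched 8 of the 10 genes (not Bsg and Gpd1). Alternatives covered pseudocounts, filters, scaling, variance trend, replicate block, gene copies and leaving out each library. For the counts over all genes they also covered an adjusted p under 0.01.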

Additional observations from a re-analysis of the deposited data

How the results depend on the processing

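Of 117 alternative values for the 9 genes other than Ldhb, 116 stayed the same in sign and call. The exception was Ldhd with values as deposited (log2 difference 0.17, limma adjusted p 0.028). Over the settings with all 4 libraries, the numbers of genes called ran from 2192 to 3760 higher and from 1883 to 2722 lower. At a stricter threshold of 0.01 on the adjusted p they were 1830 higher and 1817 lower. With a pseudocount of 1 in the ratios, the log2 difference of the Slc16a1 to Slc16a3 ratio was 1.82 in place of 1.87 and that of the Gpd1 to Gpd2 ratio 0.46 in place of 0.54. Leaving out each library gave 2 to 4 called NAD supply genes, and moved the log2 difference of Slc16a6, 0.00090 with all 4 libraries, to between -0.036 and 0.034. With no filter on low values it was -0.0095. The log2 difference of the Ldha to Ldhb ratio ran from -2.74 to -2.70 when each library was left out. Deviations of same-numbered libraries correlated at 0.046 over the genes, which with 2 libraries per group cannot show whether the libraries were paired. A replicate block in the model left 2645 genes higher and 2704 lower, with 8 of the 9 genes other than Ldhb called. Under it Naprt passed (log2 difference 0.22, limma adjusted p 0.027) and Nf1 did not (limma adjusted p 0.054). Nf1 had an adjusted p of 0.02 to 0.18 over its settings. With 2 libraries per group, the precision rests on the variance shared across genes. The cause of these shifts was not tested.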

Other observations

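A few genes below the filter on low values, singled out after their values were seen, belong beside the transporters. Emb, which encodes embigin, the partner of the transporter MCT2, was 0.08 and 0.09 RPKM in Het and 0.35 and 0.34 RPKM in Nf1-KO. Slc16a7, which encodes MCT2 itself, was 0.08 and 0.09 RPKM in Het and 0.29 and 0.23 RPKM in Nf1-KO. Both were higher in each Nf1-KO library, at levels far under those of Slc16a1 and Bsg. Slc25a13, the second aspartate-glutamate carrier gene, was 0.24 and 0.25 RPKM in Het and 0.47 and 0.50 RPKM in Nf1-KO, far below Slc25a12.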
